A study of Mus musculus with 8 samples.

Results

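The genes described here are those of the postsynaptic acetylcholine receptor of skeletal muscle and of the agrin-MuSK pathway that clusters it, in muscle stem cells sorted from Cox10-/- and wild-type mice. They were chosen by name, as the rows of the expression table whose symbol is Chrna1, Chrnb1, Chrnd, Chrng, Chrne, Rapsn, Musk, Lrp4, Dok7 or Agrn. Of these 10 symbols 9 are among the 17847 genes of the table. Chrne has no row. Values are log2 CPM, counts scaled to a common library size, and the smallest mean of any gene in the table is 0.5. There were 4 Cox10-/- and 4 wild-type libraries, numbered as replicates 1 to 4 in each genotype, all on a C57Bl/6 background. Cox10 encodes the enzyme that makes haem O, the precursor of the haem A of respiratory complex IV. The Cox10-/- group carries a floxed Cox10 allele with Pax7-Cre (ERT2), a Cre recombinase that acts in cells expressing Pax7 once tamoxifen is given. Tamoxifen was injected once, at 200 mg/kg, and 2 days later cells were sorted as positive for CD34 and negative for CD31, CD45, Sca1 and DAPI. The labels list the tamoxifen dose for the wild-type samples too, and do not say whether wild-type mice carried the Cre driver or a floxed allele. Sex and age are not given here.

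The muscle acetylcholine receptor is a channel built of alpha, beta and delta subunits with a gamma subunit in fetal muscle or an epsilon subunit in adult muscle. At the nerve-muscle synapse, agrin released by the motor nerve binds the receptor Lrp4, which activates the kinase MuSK with the help of the adaptor Dok7. The scaffold protein rapsyn then holds acetylcholine receptors in dense clusters. In muscle cells the subunit genes are known as targets of myogenic factors of the MyoD family, which bind E-boxes in their promoters.

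Reads counted in genes numbered 1693349 to 4348650 in the Cox10-/- libraries and 2148645 to 4650051 in the wild-type libraries. A value of 0 in the table means 1 CPM or less. Within each genotype, replicate 1 was closest to 2 and replicate 3 to 4, with a chi-square per degree of freedom of 2.65 to 3.06, against 4.77 to 7.72 for the other 8 pairs. The labels do not say what these libraries share. Cox10 itself stood at 3.51, 3.69, 3.49 and 2.05 log2 CPM in Cox10-/- replicates 1 to 4, against 3.98, 3.42, 4.12 and 3.69 in wild-type replicates 1 to 4. The groups overlapped, and the difference of -0.62 ± 0.34 (log2, SE, n = 4 per genotype) did not pass the test (limma adjusted p = 0.246). Reads from exons outside the deleted part count towards Cox10, and the deleted exon is not named.

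Transcripts of the receptor and its scaffold were lower in Cox10-/- cells. The alpha subunit Chrna1, the beta subunit Chrnb1, the delta subunit Chrnd and the scaffold Rapsn fell, with log2 fold changes from -1.22 to -2.60. The agrin receptor Lrp4 rose by 0.59. The gamma subunit Chrng, Musk, Dok7 and Agrn did not pass the test. In the limma fit across 17801 genes, 8.51% were called lower and 7.58% called higher at an adjusted p of 0.05, and 16.1% in all. Of the 9 genes tested here 4 were lower, 1 higher and 4 not called. Their median log2 fold change was -1.22, against -0.06 over all genes tested, and 4 of them had every Cox10-/- library below every wild-type library, as did 11.8% of all genes. Chrnd and Chrng entered the fit mainly through their wild-type values, since 3 of the 4 Cox10-/- libraries stood at 0 for each. Their direction was thus largely set by the filter, yet Chrnd is 1 of the 4 called lower and both enter the median. Without Chrnd and Chrng the middle log2 fold change is that of Agrn, -0.17. Of all calls 47.1% were rises as deposited and 59.0% after the libraries were centred on their medians, which moved the median of all genes by under 0.1. The same 5 genes kept their direction under that scaling.

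**Figure D1:**
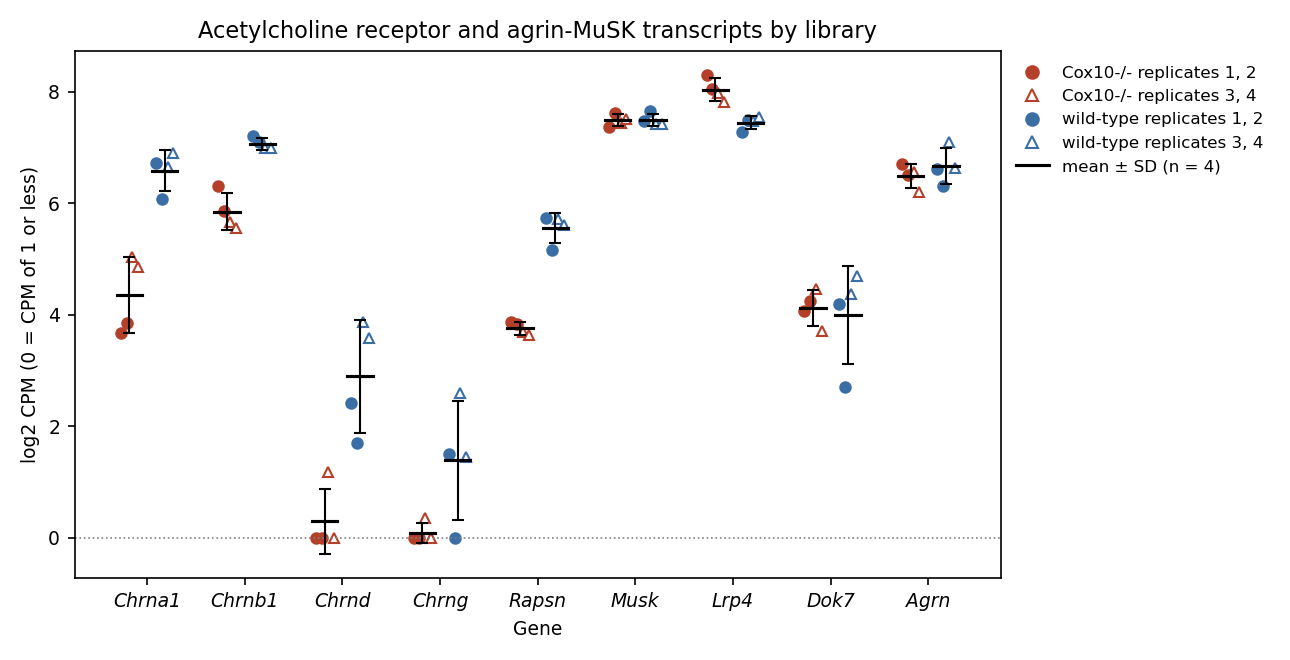
Expression of the 9 measured genes (y axis, log2 CPM as deposited) in each library, with Cox10-/- left of wild-type; bars give the mean ± SD of 4 libraries, filled circles replicates 1 and 2, open triangles replicates 3 and 4. Chrna1, Chrnb1, Chrnd and Rapsn show no overlap between genotypes with Cox10-/- lower, and Lrp4 shows none with Cox10-/- higher.

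Among the receptor subunits, Chrna1 carries the main part of the acetylcholine binding site. It stood at 3.67, 3.86, 5.04 and 4.85 log2 CPM in Cox10-/- replicates 1 to 4, against 6.72, 6.07, 6.66 and 6.91 in wild-type replicates 1 to 4. Every Cox10-/- library was below every wild-type library, and within Cox10-/- both replicates 1 and 2 were below replicates 3 and 4. Chrna1 fell by 2.24 ± 0.29 on the log2 scale (SE, n = 4 per genotype; 95% interval -2.87 to -1.60; limma adjusted p = 3.6e-04), so that the geometric mean was 21.2% of wild-type. In bulk RNA, fewer cells that express a gene and less RNA in each of them cannot be told apart, here and below.

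Chrnb1, the beta subunit, stood at 6.32, 5.87, 5.66 and 5.56 log2 CPM in Cox10-/- replicates 1 to 4, against 7.21, 7.10, 6.99 and 6.99 in wild-type replicates 1 to 4. The lowest wild-type library was above the highest Cox10-/- library. Chrnb1 fell by 1.22 ± 0.15 on the log2 scale (SE, n = 4 per genotype; limma adjusted p = 2.1e-04), to 42.9% of the wild-type geometric mean.

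Chrnd, the delta subunit, was near the floor of the table in Cox10-/- cells. It stood at 0, 0, 1.17 and 0 log2 CPM in Cox10-/- replicates 1 to 4, against 2.42, 1.70, 3.87 and 3.58 in wild-type replicates 1 to 4. The steps of the table gave 7 reads in Cox10-/- replicate 3 and 142 over the 4 wild-type libraries, and up to 16 reads in all Cox10-/- libraries once those hidden by the floor are allowed for. Over pooled reads the level in wild-type was thus at least 8.32 times that in Cox10-/-, which allows for hidden reads and not for counting error. From the floor, Chrnd fell by 2.60 ± 0.49 (log2, SE, n = 4 per genotype; limma adjusted p = 0.0038). With limma-voom on the recovered reads it was -4.80 and did not pass (adjusted p = 0.0614). That fit took each library at the floor as having 0 reads, so its size rests on reads that the floor may hide. In the 8 limma fits that each left out a library the adjusted p was at most 0.0127.

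Chrng, the gamma subunit of the fetal receptor, stood at 0, 0, 0.36 and 0 log2 CPM in Cox10-/- replicates 1 to 4, against 1.5, 0, 2.59 and 1.45 in wild-type replicates 1 to 4. The groups overlapped at the floor, where wild-type replicate 2 lies. The log2 difference of -1.30 ± 0.47 did not pass the test (SE, n = 4 per genotype; limma adjusted p = 0.0816). Without wild-type replicate 2, the second shallowest library, it was -1.76 and passed (limma adjusted p = 0.0112). Only 4 of the fits that each left out a library tested Chrng, which fell below the filter in the others. Of these 4 only that 1 passed, and the largest limma adjusted p was 0.144, without Cox10-/- replicate 2. The steps of the table gave 4 reads in Cox10-/- libraries, or up to 13 with those the floor can hide, and 49 in wild-type libraries. Over pooled reads the level in wild-type was at least 3.53 times that in Cox10-/-, again without counting error. Chrne, the epsilon subunit that replaces gamma in adult muscle, is not analysed here for want of a row, and no comparison of fetal with adult subunits was made.

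**Figure D2:**
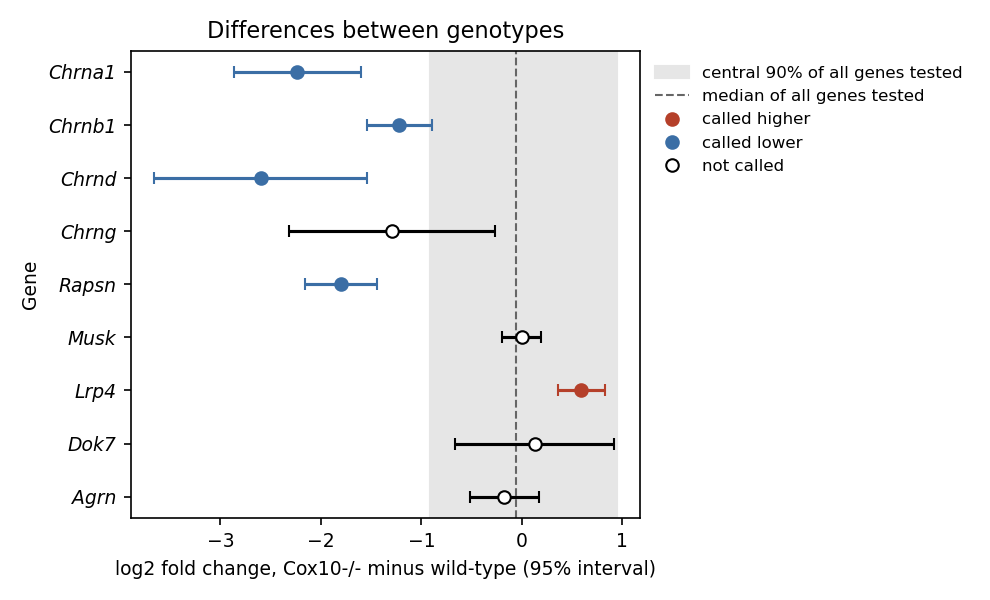
Log2 fold change of each gene (x axis, Cox10-/- minus wild-type, limma) with its 95% interval; the grey band runs from percentile 5 to percentile 95 of all genes tested, -0.91 to 0.95, and the dashed line is their median. Chrna1, Chrnd and Rapsn have their whole interval below the band, and Musk lies within 0.20 of 0 on either side.

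The promoters of subunit genes are shown because E-boxes in them are a known feature. Chrna1 and Chrnb1 fell, and Chrng did not pass the test. RefSeq windows (build GRCm38.p6) run from 250 bases before to 50 bases after the start of transcription, and 7 of the 10 genes have one; Chrnd, Rapsn and Lrp4 do not. The capitals mark each E-box, CANNTG, searched on both strands (the motif reads the same on each), and sequences run 5′ to 3′ on the strand of the gene. The windows are Chrna1 at chr2:73580289-73580588 (minus strand), Chrng at chr1:87205561-87205860 (plus strand), Chrnb1 at chr11:69795888-69796187 (minus strand) and, as a pathway gene whose transcript did not pass the test, Musk at chr4:58285712-58286011 (plus strand).
Chrna1: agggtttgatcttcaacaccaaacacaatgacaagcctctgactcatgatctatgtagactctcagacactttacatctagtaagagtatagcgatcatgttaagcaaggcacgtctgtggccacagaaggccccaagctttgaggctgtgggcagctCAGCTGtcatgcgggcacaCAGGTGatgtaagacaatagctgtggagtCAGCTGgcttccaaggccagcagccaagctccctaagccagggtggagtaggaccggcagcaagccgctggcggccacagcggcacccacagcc
Chrng: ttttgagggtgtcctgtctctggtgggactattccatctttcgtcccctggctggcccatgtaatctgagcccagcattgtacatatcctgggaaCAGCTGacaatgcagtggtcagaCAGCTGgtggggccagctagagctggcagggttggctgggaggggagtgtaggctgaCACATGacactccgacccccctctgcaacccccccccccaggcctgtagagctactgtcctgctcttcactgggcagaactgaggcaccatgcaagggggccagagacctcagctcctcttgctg
Chrnb1: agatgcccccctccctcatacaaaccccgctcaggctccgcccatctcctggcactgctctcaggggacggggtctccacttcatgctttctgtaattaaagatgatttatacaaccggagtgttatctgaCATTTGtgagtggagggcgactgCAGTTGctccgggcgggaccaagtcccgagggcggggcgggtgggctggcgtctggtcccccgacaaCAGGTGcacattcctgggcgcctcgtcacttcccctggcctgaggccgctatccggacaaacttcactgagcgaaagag
Musk: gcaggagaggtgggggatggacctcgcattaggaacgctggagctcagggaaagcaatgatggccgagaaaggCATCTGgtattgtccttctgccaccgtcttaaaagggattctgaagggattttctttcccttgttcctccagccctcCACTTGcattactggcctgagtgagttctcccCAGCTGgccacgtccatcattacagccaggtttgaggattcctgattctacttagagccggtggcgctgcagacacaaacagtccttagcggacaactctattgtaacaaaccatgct

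Each of these 4 windows holds 3 E-boxes. At least 1 is held by 72.3% of all 32851 RefSeq windows, and the share that holds 3 was not counted. The form CAGCTG, present in 16.3% of all windows and a subset of CANNTG, begins at -92 and -44 from the start of Chrna1 and at -155 and -132 from that of Chrng. It also begins at -68 from the start of Musk and is not found in the Chrnb1 window. The Chrne window has 1 CAGCTG and 1 CCGGAA, the core of the N-box described at synaptic genes, which 14.9% of all windows hold on either strand. Both Dok7 windows together have 1 E-box and no CAGCTG, as do both Agrn windows. A match describes these letters and shows no binding.

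Rapsn, which encodes rapsyn, fell, with an SD of 0.11 between Cox10-/- libraries and 0.27 between wild-type libraries. It stood at 3.87, 3.83, 3.69 and 3.63 log2 CPM in Cox10-/- replicates 1 to 4, against 5.74, 5.16, 5.72 and 5.61 in wild-type replicates 1 to 4. The highest Cox10-/- library was more than 1 below the lowest wild-type library. Rapsn fell by 1.80 ± 0.17 (log2, SE, n = 4 per genotype; limma adjusted p = 3.1e-05), to 28.7% of the wild-type geometric mean. In the GENCODE annotation 4 exon bases of Rapsn are shared with a gene model on the opposite strand, and no other gene of the set shares exon bases with a neighbour.

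Musk, which encodes the kinase of the pathway, stood at 7.37, 7.63, 7.45 and 7.52 log2 CPM in Cox10-/- replicates 1 to 4, against 7.48, 7.65, 7.43 and 7.42 in wild-type replicates 1 to 4. The groups overlapped in full, and the difference was -0.0025 ± 0.09 (log2, SE, n = 4 per genotype; 95% interval -0.20 to 0.19; limma adjusted p = 0.99).

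Lrp4, the receptor through which agrin reaches MuSK, was the 1 gene of the set that rose. It stood at 8.31, 8.05, 7.99 and 7.82 log2 CPM in Cox10-/- replicates 1 to 4, against 7.29, 7.49, 7.47 and 7.55 in wild-type replicates 1 to 4. All 4 Cox10-/- libraries were above all 4 wild-type libraries, as in 9.3% of all genes. Lrp4 rose by 0.59 ± 0.11 on the log2 scale (SE, n = 4 per genotype; limma adjusted p = 0.0033), 1.51-fold. The call held in all 8 fits that each left out a library. It was lost when replicates 1 and 2 were averaged, and likewise 3 and 4, leaving 2 values per genotype (limma adjusted p = 0.0546).

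Dok7, the adaptor that activates MuSK from inside the cell, stood at 4.06, 4.25, 4.47 and 3.70 log2 CPM in Cox10-/- replicates 1 to 4, against 4.20, 2.70, 4.38 and 4.69 in wild-type replicates 1 to 4. The groups overlapped, and the difference of 0.13 ± 0.37 did not pass (log2, SE, n = 4 per genotype; 95% interval -0.67 to 0.92; limma adjusted p = 0.847). Agrn, the gene of agrin, stood at 6.71, 6.51, 6.56 and 6.20 log2 CPM in Cox10-/- replicates 1 to 4, against 6.62, 6.32, 7.10 and 6.63 in wild-type replicates 1 to 4. It too overlapped between genotypes, with a difference of -0.17 ± 0.16 (log2, SE, n = 4 per genotype; 95% interval -0.52 to 0.17; limma adjusted p = 0.496). Gene counts do not separate the neural from the muscle splice forms of agrin.

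Whether the genes changed unequally was tested on log2 ratios of pairs within each library, which do not depend on how a library is scaled. In 2 of the 6 pairs the genotypes did not overlap. The ratio of Musk to Lrp4 was -0.55 ± 0.28 in Cox10-/- and 0.05 ± 0.16 in wild-type (log2, SD, n = 4), and that of Agrn to Lrp4 was -1.55 ± 0.09 in Cox10-/- and -0.78 ± 0.34 in wild-type. Both gave an exact two-sided permutation p of 0.0286, the smallest that 70 assignments allow, and an adjusted p of 0.0857 over the 6 pairs. Neither passed, but 2 pairs at the smallest p cannot pass after adjustment over 6, however large their differences. The test therefore does not decide whether these 2 pairs changed unequally. The ratio of Chrnb1 to Chrna1 differed by 1.02 (1.5 ± 1.0 in Cox10-/-, 0.48 ± 0.40 in wild-type), that of Rapsn to Chrna1 by 0.43, that of Chrnd to Chrna1 by -0.37 and that of Dok7 to Musk by 0.13. Their exact permutation adjusted p lay between 0.286 and 0.914, and the Chrnd ratio rests on values at the floor.

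Levels were compared between genes only per kilobase of exon, with lengths from the GENCODE annotation. In Cox10-/- cells Musk was highest at 47.7 CPM per kilobase (geometric mean, n = 4) and lay apart from Lrp4 at 25.1, followed by Chrnb1 (22.8), Agrn (9.71), Rapsn (7.49), Chrna1 (4.67) and Dok7 (4.07). In wild-type cells Chrnb1 was highest at 53.2 CPM per kilobase, with Musk at 47.8, Rapsn at 26.1, Chrna1 at 22.0, Lrp4 at 16.6, Agrn at 10.9 and Dok7 at 3.72. Chrnd and Chrng had the lowest geometric means in both genotypes. In Cox10-/- cells both rest on 3 libraries at 0. In Cox10-/- cells the ranges of the 4 libraries overlapped between Lrp4 and Chrnb1 and along the chain Agrn, Rapsn, Chrna1 and Dok7. Ranges in wild-type cells overlapped for Chrnb1 with Musk, Rapsn with Chrna1, Chrna1 with Lrp4, Dok7 with Chrnd, and Chrnd with Chrng. An overlap of ranges does not compare genes within the same library, and the order of neighbours within libraries was not tested.

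The size of several differences depended on which libraries were compared. In replicates 1 and 2 Chrna1 averaged 3.77 log2 CPM in Cox10-/- and 6.40 in wild-type, a difference of -2.63, and in replicates 3 and 4 it averaged 4.95 in Cox10-/- and 6.79 in wild-type, a difference of -1.84. Chrnd differed by -2.06 in replicates 1 and 2 and by -3.14 in replicates 3 and 4, and Chrng by -0.75 and -1.84. Both stood at 0 in Cox10-/- replicates 1, 2 and 4, so -2.06 and -0.75 are only the heights of the wild-type means above the floor. Rapsn differed by -1.60 and -2.01, Chrnb1 by -1.06 and -1.38, and Lrp4 by 0.79 and 0.40, each with the same sign in both sets. Dok7 differed by 0.71 in replicates 1 and 2 and by -0.45 in replicates 3 and 4, and Agrn by 0.14 and -0.49. Musk differed by -0.065 in replicates 1 and 2 and by 0.06 in replicates 3 and 4. With 2 libraries per genotype in each set, these values carry no test.

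**Figure D3:**
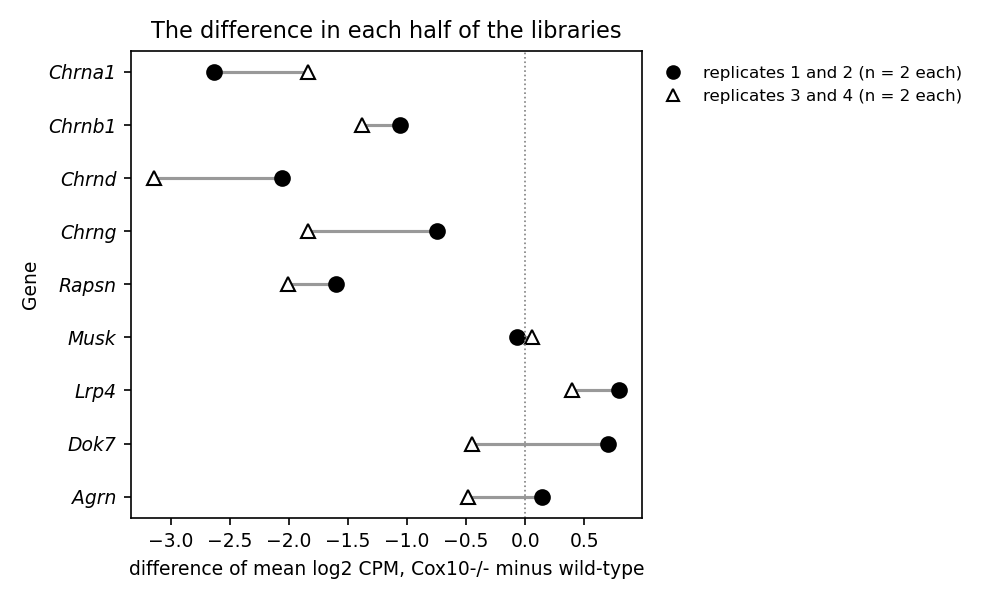
Difference of mean log2 CPM (x axis, Cox10-/- minus wild-type) for each gene in replicates 1 and 2 (filled circles) and in replicates 3 and 4 (open triangles), 2 libraries per genotype in each. The receptor subunits and Rapsn lie below 0 in both sets and Lrp4 above 0 in both, while Dok7, Agrn and Musk lie on opposite sides of 0. For Chrnd and Chrng the Cox10-/- libraries stand at the floor in all but replicate 3.

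The genes most like each member over the 8 libraries were ranked by the root mean square difference of log2 values, each centred on its own mean. Nearest to Chrna1 was Col13a1 (0.27), a transmembrane collagen of the neuromuscular synapse, then Traf3ip3 (0.31) and C1qtnf3 (0.31). Nearest to Chrnb1 were Palld (0.06), which encodes the actin-binding palladin, Gxylt2 (0.10) and the laminin-binding integrin gene Itga7 (0.12). Nearest to Rapsn were the cyclin gene Ccnd1 (0.09), Adamts20 (0.15) and the protein kinase C gene Prkcq (0.19), and nearest to Lrp4 were Dgka (0.07), Pear1 (0.08) and Grasp (0.08). For scale, Chrna1, Chrnb1, Rapsn and Lrp4 varied about their own means by 1.22, 0.65, 0.92 and 0.33. Genes that differ between the genotypes by a similar amount score as alike on this measure whatever else they do.

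Other genes of acetylcholine receptor biology were read from 7 lists drawn up by role. Of 80 tested, 10 rose and 15 fell, where the shares over all genes are 7.58% and 8.51%, and the median was -0.06, against -0.06 over all genes. Of 32 agrin-MuSK partners and scaffold genes 5 rose and 2 fell, with a median of 0.03. Col13a1 stood at 2.28, 2.34, 3.17 and 3.15 log2 CPM in Cox10-/- replicates 1 to 4, against 4.4, 4.14, 4.99 and 5.05 in wild-type replicates 1 to 4, and fell by 1.91 ± 0.29 (log2, SE, n = 4 per genotype; limma adjusted p = 0.0010). Dag1, which encodes dystroglycan, a receptor for laminin and agrin, fell by 0.95 ± 0.10 (limma adjusted p = 7.0e-05). The Wnt ligand gene Wnt11 rose by 2.14 ± 0.29 (limma adjusted p = 5.1e-04) and the Wnt receptor gene Fzd9 by 1.75 ± 0.36 (0.0068). Fzd9 stood at 3.02, 3.78, 4.32 and 4.15 log2 CPM in Cox10-/- libraries, against 1.63, 1.48, 2.48 and 2.69 in wild-type libraries. Dtna and Lamb2, named after their values were seen, rose by 1.19 and 0.33, Lamb2 in 4 of the 8 fits that each left out a library. The other 25 did not pass, among them utrophin (Utrn), at -0.23 ± 0.09, and Ctnnb1, at 0.05 ± 0.09, also named after their values were seen.

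Of 4 measured genes of acetylcholine breakdown, 2 fell, with a median of -0.70. Colq, whose collagen tail anchors acetylcholinesterase in the synaptic basal lamina, stood at 0.48, 0, 0 and 0 log2 CPM in Cox10-/- replicates 1 to 4, against 1.87, 1.48, 2.11 and 1.31 in wild-type replicates 1 to 4. Like Chrnd, it entered the fit through its wild-type values, with 3 Cox10-/- libraries at 0. Its difference from the floor was -1.57 ± 0.32 (log2, SE, n = 4 per genotype; limma adjusted p = 0.0060). The call was lost with 2 means per genotype (adjusted p = 0.0505). Bche, which encodes butyrylcholinesterase, fell by 1.18 ± 0.21 (limma adjusted p = 0.0030). Ache, the acetylcholinesterase gene, overlapped between genotypes at a difference of -0.22 ± 0.31 (limma adjusted p = 0.667). The genes of acetylcholine synthesis and transport, Chat, Slc18a3 and Slc5a7, have no row.

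Of 6 measured genes of neuronal nicotinic and muscarinic receptors 3 fell, with a median of -0.11. Chrna7, whose product forms channels of 1 kind of subunit, stood at 1.70, 0.69, 1.36 and 1.82 log2 CPM in Cox10-/- replicates 1 to 4, against 3.73, 3.80, 3.97 and 4.24 in wild-type replicates 1 to 4. It fell by 2.54 ± 0.30 (log2, SE, n = 4 per genotype; limma adjusted p = 1.7e-04), and the lowest wild-type library lay more than 1.9 above the highest Cox10-/- library. Chrna4 fell by 1.38 ± 0.33 (limma adjusted p = 0.0146) and the muscarinic receptor gene Chrm3 by 1.02 ± 0.25 (0.0154). These 2 calls were lost without wild-type replicate 1 for Chrna4 (0.0502) and without wild-type replicate 4 for Chrm3 (0.0546). Chrnb2 did not pass, at 0.80.

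Of 8 receptor assembly and export genes 2 fell, with a median of -0.13. They were Lynx1, an anchored modulator of nicotinic receptors, at -0.88 ± 0.16 (log2, SE; limma adjusted p = 0.0036), and the retrieval receptor Rer1, at -0.32 ± 0.10 (0.0450), whose call was kept in 1 of the 8 leave-one-out fits (the largest adjusted p, 0.114, came without wild-type replicate 1). Of 5 glycosylation genes mutated in congenital myasthenia 1 fell, Gfpt1, the first enzyme of hexosamine synthesis, by 0.49 ± 0.11 (limma adjusted p = 0.0090), and the median was -0.49. Of 10 genes of neuregulin-ErbB signalling and synapse-specific transcription 1 fell and 1 rose, with a median of -0.01. The ETS factor gene Etv5 fell by 0.53 ± 0.11 (limma adjusted p = 0.0053) and its relative Etv1 rose by 0.53 ± 0.12 (0.0120). Gabpa, whose product binds the N-box, did not pass at -0.15 ± 0.09 (limma adjusted p = 0.293), nor did the neuregulin receptor gene Erbb3 at 0.29 ± 0.38 (0.645).

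**Figure D4:**
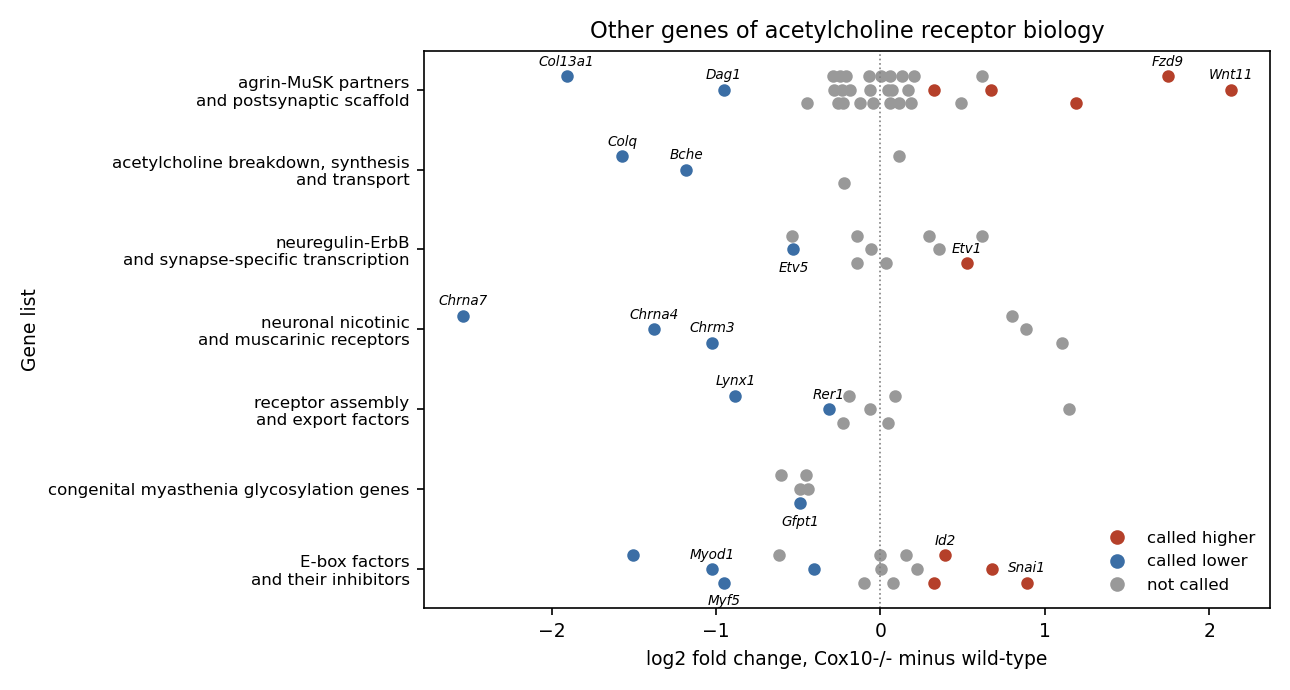
Log2 fold change (x axis, Cox10-/- minus wild-type) of each tested gene of the 7 lists (y axis, small vertical offsets only separate points); red marks genes called higher, blue those called lower and grey those not called, with up to 4 called genes of smallest p named per list. Chrna7, Col13a1 and Colq lie furthest to the left among called genes, and Wnt11 and Fzd9 furthest to the right.

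Of 15 genes of E-box factors, their inhibitors and Mef2 factors, listed together, 4 fell and 4 rose, with a median of 0.00. Myod1, the myogenic determination factor gene, stood at 6.03, 5.91, 5.33 and 5.10 log2 CPM in Cox10-/- replicates 1 to 4, against 6.94, 6.86, 6.32 and 6.35 in wild-type replicates 1 to 4, a fall of 1.03 ± 0.21 (log2, SE, n = 4 per genotype; limma adjusted p = 0.0069). Myf5, its relative, fell by 0.95 ± 0.13 (limma adjusted p = 5.7e-04). Myog, the gene of myogenin, stood at 3.56, 3.92, 5.41 and 5.52 log2 CPM in Cox10-/- replicates 1 to 4, against 6.22, 5.31, 6.27 and 6.63 in wild-type replicates 1 to 4. Its Cox10-/- replicates 1 and 2 were low and replicates 3 and 4 higher, as for Chrna1, and replicates 3 and 4 overlapped wild-type replicate 2. Among 11958 genes ranked by likeness to Chrna1, Myog was 11th, at a root mean square difference of 0.44, Myf5 was at place 575 and Myod1 at place 1112. For Chrnb1 Myog was the least alike of these, with Myf5 at place 23, Myod1 at place 48 and Myog at place 10282. For Rapsn the places were 330 for Myf5, 427 for Myod1 and 1979 for Myog. Myog fell by 1.51 ± 0.42 (limma adjusted p = 0.0285), a call kept in 3 of the 8 leave-one-out fits (the largest adjusted p, 0.0762, came without Cox10-/- replicate 2). Among the inhibitors, Snai1, whose product binds E-boxes as a repressor, rose by 0.89 ± 0.20 (limma adjusted p = 0.0091) and Id2 by 0.40 ± 0.11 (0.0279), with the call of Id2 kept in 3 of these 8 fits (the largest, 0.0723, without wild-type replicate 4). The other calls, named after their values were seen, were Tcf3 (-0.41), Mef2d (0.33) and Twist1 (0.68), kept in 1, 4 and 3 of these fits.

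Transcripts listed as markers of other cell types were present in both genotypes, and some of these differed. Each sum weighs most the genes of highest level, and whether the muscle stem cells themselves express these genes was not tested. For the counts of calls below, the shares over all genes were 7.58% called higher and 8.51% called lower. Of 10 muscle stem cell markers 6 fell, with a median of -0.86, and their summed level was 1743 to 1888 CPM in Cox10-/- and 2639 to 3289 CPM in wild-type libraries. Pax7 was present in every library at 7.15 to 7.52 log2 CPM in Cox10-/- and 8.45 to 8.77 in wild-type. Of 17 muscle fibre markers 2 rose and 2 fell, with sums of 674 to 1130 CPM in Cox10-/- and 855 to 1375 CPM in wild-type. Their median log2 fold change was 0.45, while Ttn (-0.67) and Des (-0.10), which weigh most in the sums, did not pass. In Cox10-/- the fibre sums of replicates 1 and 2 (731 and 674) were below those of replicates 3 and 4 (1090 and 1130), as for Chrna1. The Cox10-/- fibro-adipogenic sums split the same way (3657 and 3627 against 5294 and 7411 CPM). So did the tenocyte sums (1434 and 1362 against 2039 and 2709 CPM). Endothelial, Schwann and glial, and immune sums in Cox10-/- split the opposite way. Myh2 and Myh7 were at 0 in wild-type replicate 2. Of 10 endothelial markers 4 rose (358 to 455 CPM in Cox10-/-, 269 to 336 CPM in wild-type). Of 10 fibro-adipogenic markers 2 rose and 1 fell (3627 to 7411 CPM in Cox10-/-, 3550 to 4714 CPM in wild-type). Of 9 mural markers 2 rose and 3 fell (1157 to 1479 CPM in Cox10-/-, 1380 to 1586 CPM in wild-type). The mural median log2 fold change was 0.345, while Notch3, the mural marker of highest level in wild-type, fell by 2.38. Of 10 Schwann and glial markers 1 rose and 1 fell (408 to 649 CPM in Cox10-/-, 384 to 666 CPM in wild-type). Sox10, a defining glial factor, was above 0 in every library, at 3.88 to 5.74 log2 CPM in Cox10-/- and 3.71 to 5.29 in wild-type. Of 5 tenocyte markers 1 fell (1362 to 2709 CPM in Cox10-/-, 1356 to 1707 CPM in wild-type), and of 5 erythroid transcripts 2 rose (28.3 to 31.8 CPM in Cox10-/-, 9.43 to 24.0 CPM in wild-type). Of 4 immune markers measured none passed in the limma fit, and 1 had an unadjusted p under 0.05 (27.7 to 47.4 CPM in Cox10-/-, 25.6 to 35.2 CPM in wild-type), and Ptprc, the gene of CD45, has no row. Their part in the differences of the receptor and pathway genes was not tested.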

How the data were processed

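Total RNA of 8 samples was made into strand-specific libraries, per the labels' protocols. Trim Galore, HISAT2, featureCounts, DESeq2 and build mm9 are named in the submitters' processing notes. Their versions and the strand setting of the counts were not given in the sources used here. As the values show, the authors deposited 1 table of log2 CPM, rounded to 2 decimals, with every CPM of 1 or less at 0. A further 1054 rows name no gene and were left out, as was a column of means. Within 0.1 reads, 100% of low values were whole reads, which gave the depths. The genotypes were fitted with limma 3.58.1 (R 4.3.3) to the deposited log2 values (genotype alone, trend in the variance prior, genes above 0 in at least 4 libraries, Benjamini-Hochberg over all genes, threshold 0.05), tested on simulated data. No pseudocount was added, so folds from the floor understate the change where the lower genotype is at 0. Permutation tests were run in Python 3.11.15. Lengths come from GENCODE M21 (GRCm38), a build other than that of the counts. No label says that each library is a separate animal, so p-values measure the spread between these libraries. The members, lists and tests were chosen with earlier results of these data known. Named genes are the members, up to 4 of each list with the smallest p, Cox10, Myod1, Myog, Myf5, Gabpa, Erbb3 and Ache, and for likeness the 3 nearest genes of mean 2 or more without predicted models. The values of 1 further called gene are not reported here.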

Additional observations from a re-analysis of the deposited data

Results flagged for a closer look

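In 3 groups of 4 libraries 1 library stood far from the other 3 by Dixon's criterion at 95%, which chance meets in about 1 in 20 groups, and 20 groups were looked at. Chrnd stood at 1.17 log2 CPM in Cox10-/- replicate 3 and at 0 in the other 3 Cox10-/- libraries. Chrng stood at 0.36 log2 CPM in the same library and at 0 in the other 3. In both cases the gap is set by the floor of the table. Cox10 stood at 2.05 log2 CPM in Cox10-/- replicate 4, the shallowest library, and at 3.49 to 3.69 in the other 3.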

How the results depend on the processing

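The 5 calls among receptor and agrin-MuSK genes held in every fit without 1 library, without a filter, with log2(CPM + 1), with median centring, TMM scaling or no trend, and without the 2 shallowest libraries. Exceptions were Lrp4 with 2 means per genotype (0.59, adjusted p = 0.0546) and Chrnd with limma-voom, added after the data were seen (-4.80, 0.0614). Chrng was tested in 4 of the fits without 1 library and passed in 1, that without wild-type replicate 2 (-1.76). It also passed without the 2 shallowest libraries (-1.73, limma adjusted p = 0.0191), which include that library. Without 1 library 1810 to 2883 of all genes were called, against 2863 as reported: 1810 without Cox10-/- replicate 3 and 1880 without wild-type replicate 1. With 2 means per genotype 858 genes and 8 pathway genes were called, against 25 as reported; fewer samples enter that fit. The replicate numbers were not taken as pairs, since deviations of same-numbered libraries of both genotypes correlated at 0.06 to 0.18 across genes, not all over 0.1, and not every library correlated best with its own number. Between replicates 1 or 2 of one genotype and 3 or 4 of the other they correlated at -0.27 to 0.03. With the replicate block 3201 genes, 5 members and 26 pathway genes were called. The planned quasi-likelihood count test was not run, as the table holds log2 values. Depth limits Chrnd, Chrng and Colq, and a library at 0 can hide 1 to 4 reads.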

Other observations

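Set against Pax7 in the same library, a comparison chosen after the values were seen and given with no test, the genes fell into different patterns. The log2 ratio of Chrnb1 to Pax7 was -1.59 to -1.20 in Cox10-/- and -1.67 to -1.46 in wild-type libraries, with overlap. Those of Rapsn (-3.65 to -3.51 in Cox10-/-, -3.61 to -2.73 in wild-type) and Chrna1 (-3.85 to -2.16 in Cox10-/-, -2.70 to -1.61 in wild-type) overlapped as well. The mean ratio, Cox10-/- minus wild-type, differed by -0.515 for Rapsn and -0.95 for Chrna1, against 0.07 for Chrnb1. Ratios of Chrnd (-1.31) and Chrng (-0.0075) overlapped too, with values at the floor. The ratio of Musk to Pax7 was -0.15 to 0.37 in Cox10-/- and -1.24 to -1.02 in wild-type, and that of Lrp4 was 0.61 to 0.79 in Cox10-/- and -1.43 to -0.97 in wild-type, with every Cox10-/- library above every wild-type library. Dok7 (-3.46 to -2.73 in Cox10-/-, -6.07 to -3.83 in wild-type) and Agrn (-0.95 to -0.64 in Cox10-/-, -2.45 to -1.35 in wild-type) also did not overlap. Pax7 itself fell by 1.29 ± 0.11 (log2, SE, n = 4 per genotype; limma adjusted p = 1.9e-05), so a ratio to it rises for any gene that kept its level.

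Ric3, a chaperone gene of nicotinic receptors, stood at 1.80 to 2.36 log2 CPM in Cox10-/- and 0 to 1.69 in wild-type libraries without overlap, at 1.15 ± 0.41, and did not pass (limma adjusted p = 0.0774). It passed with the replicate block (0.0488) and with median centring (0.0478), and in none of the 8 limma fits that each left out a library (adjusted p up to 0.202).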
